A study of Mus musculus and Rattus norvegicus with 6 samples.

Results

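The cluster that runs from miR-322 to miR-450b is a group of miRNA hairpins on the X chromosome. Its products were taken as every mature name of miR-322, miR-503, miR-351, miR-542 or miR-450, whatever the letter, copy or arm (in the mouse table mmu-miR-322-3p, mmu-miR-322-5p, mmu-miR-351-5p, mmu-miR-503-5p and mmu-miR-542-3p, among others; the species prefix is left out below). This gave 13 of the 1915 names in the mouse table and 12 of the 764 names in the rat table. Of these, 11 names stood in both tables. Small RNA was sequenced from retina of C57BL/6 mice and Sprague Dawley rats, all wild type and 9 weeks old and untreated as far as the labels say, with 3 libraries per species. The protocol text names rat eyes for both species and speaks of triplicate samples, without saying that each library came from a separate animal, so p-values measure the spread between libraries, which may be technical. Strain, annotation and any difference in library batch change with the species and cannot be told apart from it.

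MicroRNAs (miRNAs) are short RNAs cut from the 5p or the 3p arm of a hairpin, and they lower the output of messenger RNAs that pair with their seed, the stretch near the 5′ end. Hairpins close together on 1 strand are often cut from 1 long transcript, so their products can share a promoter and still differ in how well each hairpin is cut and each arm is kept. In rodents miR-322 (the counterpart of human miR-424) and miR-503 are known as inhibitors of cell cycle genes and for their rise in differentiating muscle. The seed of miR-322-5p is that of the miR-15/16 family, and the seed of miR-351-5p is that of miR-125, a family abundant in neural tissue.

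In the mouse genome (RefSeq, GRCm38.p6) the mature products of 7 hairpins lie on the minus strand within chrX:53048008-53054327, a stretch of 6320 bases. Read in the direction of transcription, the order is miR-322, miR-503 (278 bases after miR-322, counted between the first bases of their 5p products), miR-351 (989), miR-542 (4853), miR-450a-2 (5967), miR-450a-1 (6100) and miR-450b (6262). In GENCODE vM21 none of the 7 lies inside a longer gene model, in an exon or in an intron, although the long noncoding RNA Gm28730 overlaps the stretch on the same strand. The mouse sequences of all 13 names were found in RefSeq and carry 12 distinct seeds. Those below are the products on which the comparisons turn, in cluster order, with the seed (bases 2 to 8) in capitals.
miR-322-5p: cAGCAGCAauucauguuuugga
miR-322-3p: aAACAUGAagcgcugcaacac
miR-503-5p: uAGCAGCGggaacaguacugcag
miR-503-3p: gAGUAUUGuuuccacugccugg
miR-351-5p: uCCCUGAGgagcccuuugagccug
miR-542-3p: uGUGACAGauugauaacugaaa
miR-542-5p: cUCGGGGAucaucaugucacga
miR-450a-5p: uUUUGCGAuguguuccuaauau
miR-450b-5p: uUUUGCAGuauguuccugaaua
miR-450b-3p: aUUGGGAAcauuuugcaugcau

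The seeds of miR-322-5p and miR-503-5p match at 6 of 7 bases. The seed of miR-322-5p is shared by miR-16-5p, and that of miR-351-5p by miR-125b-5p, shown to compare the rest of the molecule:
miR-16-5p: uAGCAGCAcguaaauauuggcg
miR-125b-5p: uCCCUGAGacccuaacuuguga

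Aligned from the 5′ end without gaps, miR-351-5p and miR-125b-5p are the same at 10 of 22 positions. The products miR-450a-5p and miR-450b-5p are the same at 15 of 22 and have different seeds. One sequence, miR-450a-5p, is made by 2 hairpins, so its count cannot be divided between them. The 3p products miR-450a-1-3p and miR-450b-3p share a seed and are the same at 20 of 22 positions, so the division of reads between such names is uncertain. The rat sequences were not analysed here, and a name in both tables may stand for sequences that differ.

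Depth was 24169628 to 30514632 counts per library, and the cluster was a small part of both retinas. It held 1682, 3672 and 2997 counts in mouse libraries m1, m3 and m4, and 1235, 2926 and 2821 counts in rat libraries r1, r2 and r4. As counts-per-million (CPM) of all counts this was 95.7 ± 31.3 in mouse and 88.9 ± 33.7 in rat (n = 3 per species, SD), so the total of the cluster did not separate the species. Libraries m1 (60.4 on this scale) and r1 (51.1) were the lowest of their species. At least 10 counts in every library were reached by 9 of 13 names in mouse and 8 of 12 in rat. Retinal miRNAs (7 names, among them miR-183-5p, miR-182-5p and miR-124-3p) held 481275 to 564028 CPM of all counts, and none was at 0. Library r1 stood apart from r2 and r4, and epithelial and lens miRNAs (6 names, nearly all of it miR-184) held 9421 CPM of all counts there, against 1206 and 1826 in the other rat libraries and 327 to 1271 in mouse. The part of such cells in the values of r1 was not tested, and results are given without r1 where it matters.

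The make-up of the cluster differed between the species for some hairpins. The miR-322 and miR-351 hairpins held 33.8% ± 1.65 and 41.6% ± 6.41 of the cluster's counts on shared names in mouse, and 19.9% ± 0.868 and 31.6% ± 2.16 in rat (n = 3 per species, SD). The miR-450a and miR-450b hairpins held 6.12% ± 1.03 and 1.73% ± 0.466 in mouse, and 16.8% ± 1.45 and 12.9% ± 0.918 in rat (n = 3 per species, SD). For each of these 4 hairpins the 3 libraries of either species lay on 1 side, without overlap. The shares of miR-503 and miR-542 overlapped between the species. Among all tested miRNAs, the scaled levels of 59.8% did not overlap. That is another measure than a hairpin's share of its cluster, and such shares were not computed for other clusters. Whether 4 of 6 hairpins without overlap is particular to this cluster therefore cannot be said. These shares are within a library and do not depend on how libraries are scaled, although a rise of 1 share lowers the others.

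**Figure D1:**
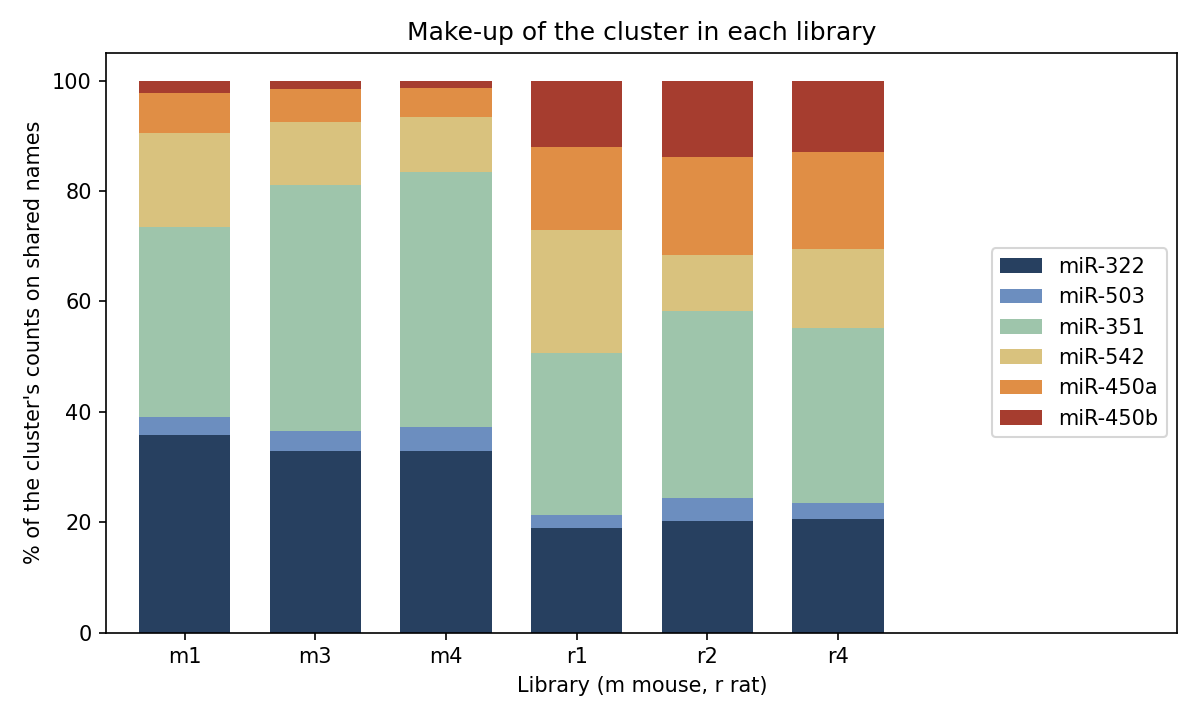
The bars show, for each library, the percentage of the cluster's counts on shared names that came from each hairpin (both arms, except miR-450a, whose 3p names are not shared). The miR-450a and miR-450b segments together are wider in r1, r2 and r4 than in m1, m3 and m4.

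To compare single products, levels were expressed as CPM of the shared names after scaling by TMM, a method that sets the bulk of miRNAs level between libraries. Species were compared with edgeR's quasi-likelihood test over all shared names with enough counts (398), with a Benjamini-Hochberg adjusted p below 0.05 as the threshold for a call. Of the 11 shared members, 9 passed the filter; miR-351-3p and miR-542-5p did not. Of these 9, 2 were higher in rat, 2 were lower and 5 were not called. Among all 398 miRNAs 50% were called, 25.6% higher and 24.4% lower, so the number of members called is close to that of miRNAs at large. The species' libraries did not overlap for 5 of the 9, against 59.8% of all tested. The median difference was -0.04 on the log2 scale over the 9 members and 0.08 over all 398.

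The first hairpin, miR-322, differed by arm. Its 3p product, which held most of the hairpin's counts, was at 33.1, 59.1 and 48.2 CPM in m1, m3 and m4 and at 17.6, 23.2 and 20.4 CPM in r1, r2 and r4. All mouse libraries lay above all rat libraries. The log2 difference, rat minus mouse, was -1.20 ± 0.24 (SE; edgeR adjusted p = 0.00288), and miR-322-3p was lower in each fit that left out 1 library (-1.38 to -0.99, all called). Its 5p product, the arm with the miR-15/16 seed, measured 1.56, 3.10 and 1.62 CPM in the mouse libraries and 1.21, 2.91 and 2.504 CPM in the rat libraries. These ranges overlapped, and the log2 difference was 0.11 ± 0.39 (edgeR adjusted p = 0.823).

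The next hairpin, miR-503, also had a 3p product that was lower in rat, at a lower level than miR-322-3p. The product miR-503-3p measured 2.61, 4.33 and 3.81 CPM in the mouse libraries and 1.21, 2.16 and 1.39 CPM in the rat libraries, without overlap. It was lower in rat by a log2 difference of -1.15 ± 0.31 (SE; edgeR adjusted p = 0.0134), a call that was lost without m3, m4 or r4 (adjusted p = 0.0577, 0.0597 and 0.0572). The product miR-503-5p, whose seed is close to that of miR-322-5p, measured 0.695, 2.58 and 2.89 CPM in the mouse libraries and 1.13, 3.22 and 1.95 CPM in the rat libraries. Here m1 and r1 were far below the others of their species, and the log2 difference of 0.06 ± 0.51 was not called (edgeR adjusted p = 0.931).

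The most abundant member in both species was miR-351-5p, the product with the miR-125 seed. Its level was 33.2, 83.8 and 69.9 CPM in mouse and 29.1, 43.2 and 35.2 CPM in rat, so m1 lay among the rat libraries. The log2 difference of -0.80 ± 0.32 was not called (edgeR adjusted p = 0.0664). Without m1 it was -1.09 and was called (adjusted p = 0.00798). The 3p arm, miR-351-3p, had 2, 3 and 4 counts in mouse and 1, 5 and 0 counts in rat, and the 0 in r4 allows up to 0.119 CPM (3 counts, counting error only).

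The levels of miR-542-3p overlapped between the species, at 16.3, 21.3 and 14.7 CPM in the mouse libraries and 22.0, 13.2 and 15.98 CPM in the rat libraries. Its log2 difference was -0.04 ± 0.24 (edgeR adjusted p = 0.905). Library r1 held the highest level of miR-542-3p in either species, while r1 was the lowest rat library for the other 8 tested members. Its partner miR-542-5p had 5, 9 and 8 counts in mouse and 0, 1 and 3 counts in rat, where the 0 in r1 allows up to 0.242 CPM.

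The last hairpins gave the products that rose in rat. The product miR-450a-5p measured 7.01, 11.2 and 7.87 CPM in the mouse libraries and 14.99, 22.7 and 19.6 CPM in the rat libraries, with no overlap. The log2 difference was 1.14 ± 0.25 (SE; edgeR adjusted p = 0.00502), and it was called in each fit without 1 library, where it ran from 1.004 to 1.36. The 3p names of miR-450a are not the same in the tables and were not compared. In mouse miR-450a-1-3p had 5, 6 and 7 counts and miR-450a-2-3p had 1, 4 and 0 counts, and in rat miR-450a-3p had 4, 11 and 13 counts.

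The largest difference among the 9 tested members was in miR-450b-5p, which had 23, 33 and 21 counts in mouse and 141, 385 and 344 counts in rat. As levels these were 1.33, 1.70 and 1.07 CPM in mouse and 11.4, 17.0 and 13.7 CPM in rat, a mean of 1.37 CPM ± 0.320 against 14.01 CPM ± 2.83 (n = 3 per species, SD). The lowest rat library lay well above the highest mouse library. The log2 difference was 3.36 ± 0.27 (SE; edgeR adjusted p = 1.17e-05), a 10.2-fold higher level in rat, and lay between 3.20 and 3.55 in the fits without 1 library. The other arm of the same hairpin, miR-450b-3p, had 15, 23 and 21 counts in mouse and 7, 19 and 19 in rat. Its log2 difference of -0.50 ± 0.30 was not called (edgeR adjusted p = 0.197), although its scaled levels were lower in each rat library (0.564 to 0.839 CPM) than in each mouse library (0.869 to 1.19 CPM).

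**Figure D2:**
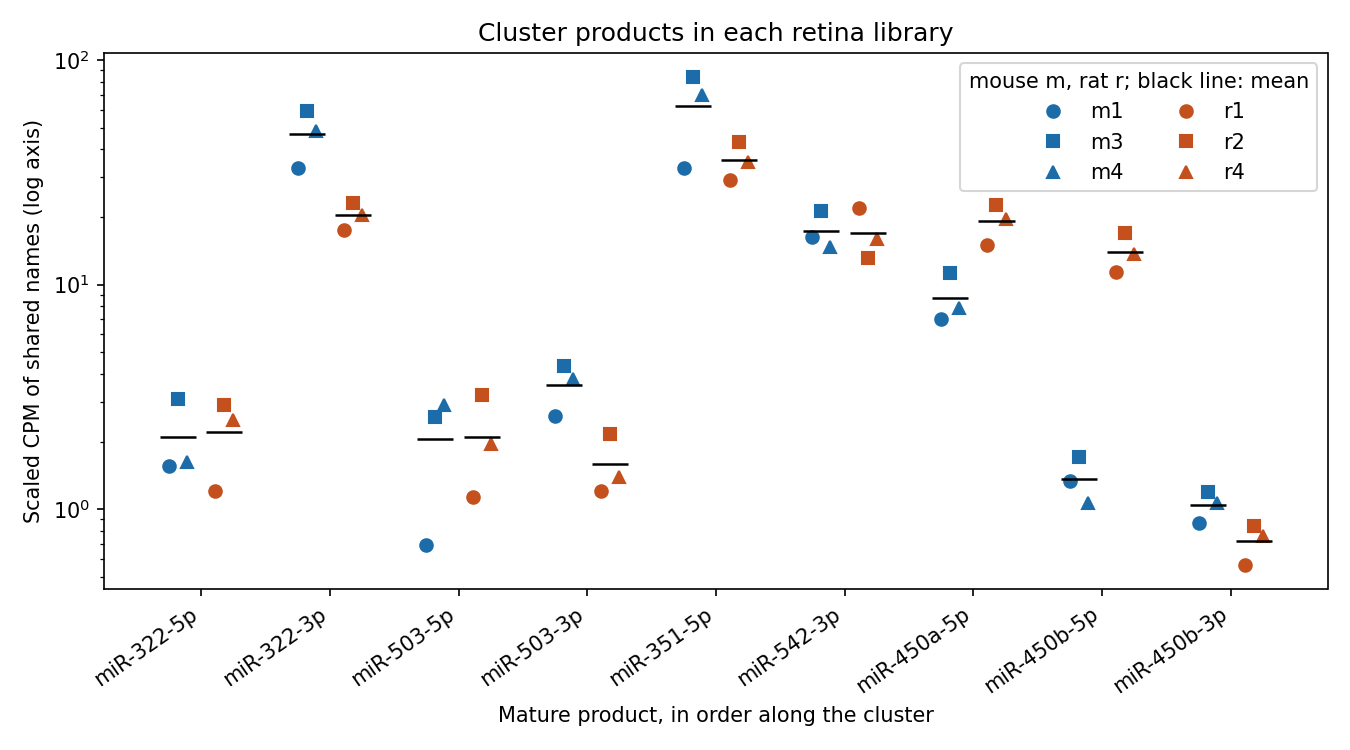
Points show the level of each of the 9 tested products in each library (scaled CPM of shared names, log axis), with the mean of each species as a black line. Mouse libraries lie above rat libraries for miR-322-3p and miR-503-3p, and rat libraries lie far above mouse libraries for miR-450b-5p.

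The order of the levels also differed. In mouse it ran miR-351-5p, miR-322-3p, miR-542-3p, miR-450a-5p, miR-503-3p, miR-322-5p, miR-503-5p, miR-450b-5p and miR-450b-3p. Among these only the steps from miR-322-3p to miR-542-3p, to miR-450a-5p and to miR-503-3p separated all 3 libraries. In rat miR-450b-5p took rank 5, against rank 8 in mouse, and miR-322-3p, miR-450a-5p, miR-542-3p and miR-450b-5p followed each other at 20.4, 19.1, 17.1 and 14.01 CPM with overlapping libraries. The mature sequences are 21 to 24 bases long, so levels were not divided by length; how efficiently each sequence enters a library is not known here.

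Scaling moved all differences together. With library totals of the shared names in place of TMM, the median of all 398 miRNAs went from 0.08 to 0.43 (log2). Of the 398, 127 were then called higher and 43 lower, against 102 (25.6%) and 97 (24.4%) with TMM. On that scale miR-450a-5p (1.53) and miR-450b-5p (3.74) were still called higher, whereas miR-322-3p (-0.83, adjusted p = 0.0960) and miR-503-3p (-0.78, adjusted p = 0.171) were lower without a call and miR-542-3p moved to 0.26.

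Along the cluster, the differences of the product with more counts over all 6 libraries followed the order of the hairpins. For miR-503 this was the 3p product. In rat its 5p product had more counts (136 against 99 over the rat libraries, with more in r2 and r4). The differences were -1.20 ± 0.24 for miR-322-3p, -1.15 ± 0.31 for miR-503-3p and -0.80 ± 0.32 for miR-351-5p (SE). For miR-542-3p, miR-450a-5p and miR-450b-5p they were -0.04, 1.14 and 3.36. The first 3 lie close together beside their SEs, so the order among them is not resolved. The order along the cluster was noticed in the data. It is a description of 6 products that share libraries, positions and possibly a transcript. Scaling by totals raised all 6 values. The order was the same in 9 of 11 alternatives. Alternatives of scaling, method, filter or names moved the 6 values nearly alike, so they could hardly change the order. The 2 alternatives that changed it were fits without 1 library. There miR-503-3p came below miR-322-3p, at -1.43 against -1.29 without r2 and at -0.9935 against -0.9931 without m3. The less abundant arms did not follow it: miR-322-5p, miR-503-5p and miR-450b-3p lay at 0.11, 0.06 and -0.50. With miR-503-5p, the more abundant arm in rat, in place of miR-503-3p, the order would not hold.

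**Figure D3:**
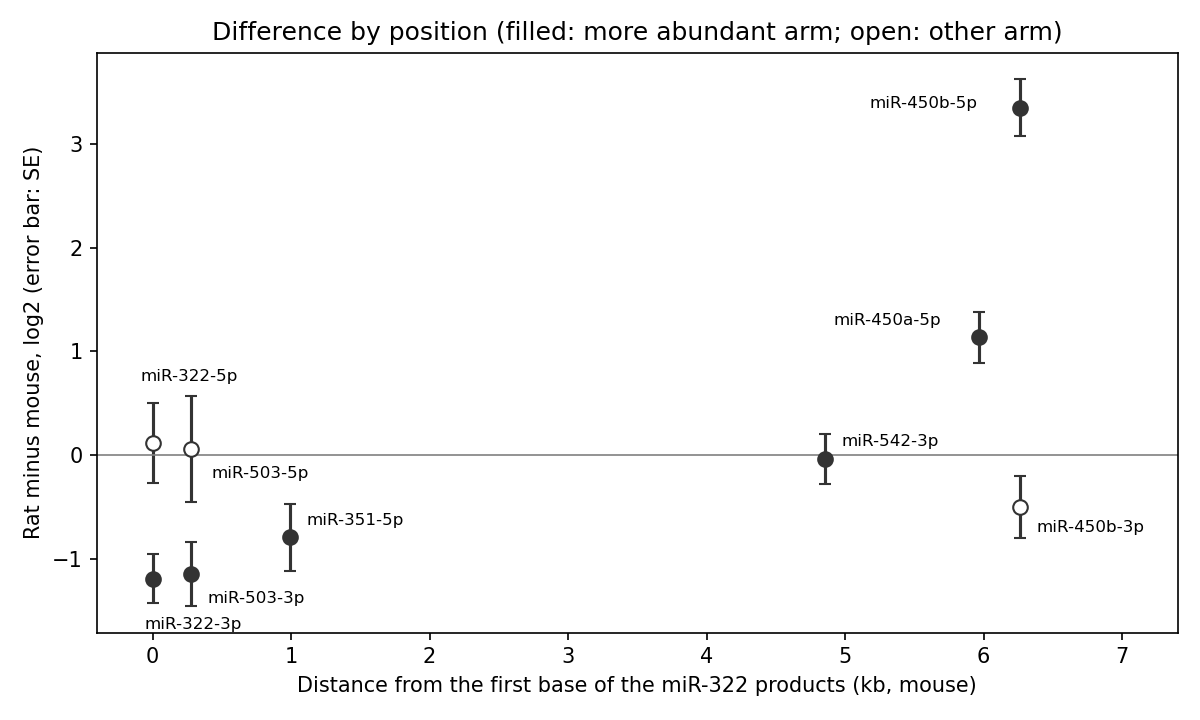
The rat-minus-mouse log2 difference of each tested product (point; error bar, SE) is plotted against the distance of its hairpin's first mature base from that of miR-322 in the mouse genome. Filled points, the arms with more counts over all 6 libraries, run from -1.20 at miR-322-3p to 3.36 at miR-450b-5p. Open points, the other arms, stay between -0.50 and 0.11.

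To compare products without any scaling, each was divided by miR-322-3p of the same library. The ratio of miR-450b-5p to miR-322-3p was higher in rat by 4.51 ± 0.25 and that of miR-450a-5p by 2.31 ± 0.13 (log2, SE from each miRNA's own spread; limma adjusted p = 0.00239 for both). For miR-503-3p the ratio differed by -0.004 ± 0.15 (adjusted p = 0.980). Of the 8 other tested members, 5 had a higher ratio in rat and 0 a lower one with the spread pooled over miRNAs (71% of 397 called), and 4 and 0 with each miRNA's own spread (52.9% called). These counts are near the share of all miRNAs. The members behind them differed in part. With their own spread miR-503-5p and miR-542-3p were not called (limma adjusted p = 0.0974 and 0.0677). The ratio of miR-450b-3p was called only with its own spread (adjusted p = 0.0252, against 0.140 pooled). The reference, miR-322-3p, was itself lower in rat, and the median ratio difference over all 397 miRNAs was 1.23 (log2). The p-values test a difference from 0, not from that median. Between the 2 related products, miR-450a-5p exceeded miR-450b-5p by 5.26, 6.61 and 7.38 times in mouse and by 1.32, 1.34 and 1.43 times in rat. An exact two-sided permutation test of this ratio gave p = 0.1, the smallest that 3 against 3 libraries allow.

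Arm usage was compared with limma as the log2 ratio of 5p to 3p counts (0.5 added to each). The test covered the 169 hairpins that had both arms named in both tables and together reached 50 counts in every library. Of these hairpins 24.3% were called, and 45.6% had species that did not overlap. Both arms of miR-322, miR-351 and miR-542 qualified. The 5p share of miR-322 was 4.51%, 4.98% and 3.26% in mouse and 6.44%, 11.2% and 10.9% in rat, so the 3p arm dominated in each library and the arm with the miR-15/16 seed took a larger part in rat. The log2 ratio was higher in rat by 1.23 ± 0.32 (SE; limma adjusted p = 0.0378). The 95% Wilson intervals of m1 (3.12% to 6.48%) and r1 (3.94% to 10.3%) overlapped, and the call was lost without any 1 of m1, m3, m4, r2 or r4 (adjusted p = 0.0880 to 0.130). Without r1 it was 1.498 (adjusted p = 0.00747).

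For miR-542 the shift went the other way. Its 5p share was 1.75%, 2.14% and 2.68% in mouse and 0%, 0.333% and 0.741% in rat, and the 0 of 273 counts in r1 allows up to 1.39% (upper 95% Wilson bound). The log2 ratio was lower in rat by -2.46 ± 0.58 (SE; limma adjusted p = 0.0272), on 5p counts of 0 to 9 per library. With 5 added in place of 0.5 it was -0.96 (adjusted p = 0.0106), and the call was lost without m1, m3, m4 or r2 (adjusted p = 0.0627 to 0.105). Without r1, the library with the 0, it was -1.84 (limma adjusted p = 0.0111), and without r4 it was -2.96 (adjusted p = 0.0176). The 5p arm of miR-351 took 99.5% to 100% of counts in each library, and its ratio was not called (0.41 ± 0.90, limma adjusted p = 0.788).

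The arms of miR-450b and miR-503 fell under the minimum of 50 counts and are given with a minimum of 10, where 26.3% of 190 hairpins were called. The 5p share of miR-450b was 60.5%, 58.9% and 50.0% in mouse and 95.3%, 95.3% and 94.8% in rat. The arms were thus near parity in mouse, where the 95% Wilson intervals together ran from 35.5% to 74.4%, while in rat nearly all counts were 5p, with intervals from 90.6% to 97.7%. The log2 ratio was higher in rat by 3.86 ± 0.24 (SE; limma adjusted p = 0.000117). The 5p share of miR-503 was 21.1%, 37.3% and 43.2% in mouse and 48.3%, 59.8% and 58.3% in rat. Its ratio was higher in each rat library than in each mouse library, but the difference of 1.32 ± 0.44 was not called (limma adjusted p = 0.0768).

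**Figure D4:**
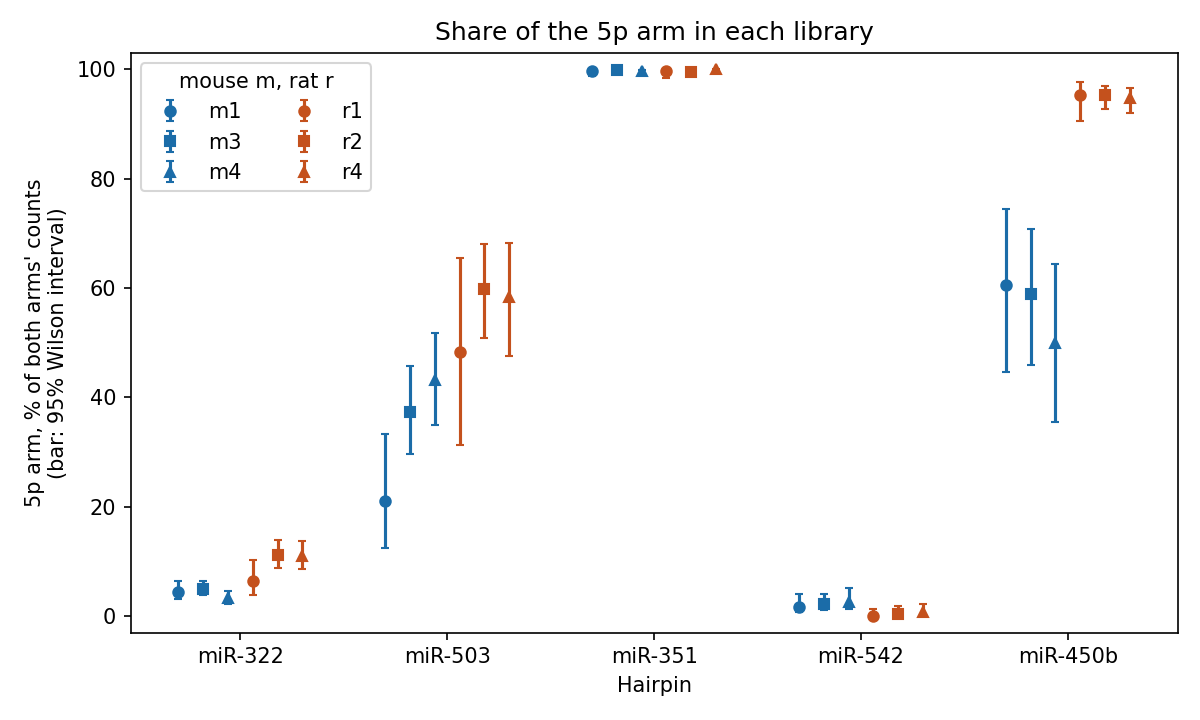
Points show the 5p arm as a percentage of both arms' counts in each library, with 95% Wilson intervals that cover counting error only. The 5p share of miR-450b is 50.0% to 60.5% in mouse and 94.8% to 95.3% in rat, and that of miR-351 is near 100% throughout.

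Within each species most members were low in the same library. Library m1 was the lowest mouse library for 7 of the 9 tested members, all but miR-450b-5p and miR-542-3p, and r1 the lowest rat library for 8. Among all 398 tested miRNAs, m1 was the lowest mouse library for 22.6% and r1 the lowest rat library for 44.7%. The level in r1 was 0.437 (miR-503-5p) to 0.806 (miR-322-3p) of the mean of r2 and r4 for these 8, and 1.51 for miR-542-3p. Among 234 other miRNAs of at least 10 CPM in each species, the profile most like that of the summed members over the 6 libraries was miR-369-5p (Pearson r = 0.703), followed by miR-27a-3p (0.690), miR-153-3p (0.676), miR-1306-5p (0.676) and miR-421-3p (0.663). These values describe 6 libraries of 2 species that share depth and scaling.

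The products with a miR-15/16 or miR-125 seed were a small part of the counts of their seed relatives. Counting miR-15a-5p, miR-15b-5p, miR-16-5p, miR-195a-5p and miR-497a-5p with miR-322-5p, the latter made up 0.226% ± 0.0824 of their counts in mouse and 0.406% ± 0.0613 in rat (n = 3 per species, SD). Likewise miR-351-5p made up 0.350% ± 0.136 of its counts with miR-125a-5p and miR-125b-5p in mouse and 0.274% ± 0.0432 in rat (n = 3 per species, SD). Among 5 relatives tested by exact name, 2 fell below mouse in the rat libraries, 0 rose and 3 had no call, with a median of -0.48. Over all 398 miRNAs 50% were called, 24.4% lower and 25.6% higher, with a median of 0.08. The count of relatives called in either direction is near that of miRNAs at large. The 2 calls were on the lower side, among only 5 names. For the abundant miR-16-5p the mouse mean was 719 CPM ± 83.4 and the rat mean 420.04 CPM ± 131 (n = 3 per species, SD). The relatives miR-195a-5p (-1.17 ± 0.15, edgeR adjusted p = 0.000469) and miR-497a-5p (-0.79 ± 0.25, 0.0319) could be joined to rat names only by a relaxed match.

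Other X-linked miRNAs moved in both directions. Of 30 tested, 15 were higher in rat, 6 lower and 9 not called, with a median log2 difference of 0.60, against 25.6% higher, 24.4% lower and a median of 0.08 over all 398. RefSeq held an entry for 27 of the 30, all 27 on the X chromosome. The 4 most abundant were miR-361-3p (1.003 ± 0.24) and miR-325-5p (2.34 ± 0.15), both higher, and miR-532-5p (-0.72 ± 0.18) and miR-98-5p (-0.46 ± 0.16), both lower, with edgeR adjusted p of 0.00776, 2.65e-06, 0.0100 and 0.0399. The extremes were miR-363-3p (7.59 ± 0.46) and miR-501-5p (-3.34 ± 0.57). X-linked miRNAs thus had calls in either direction.

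As the cluster is known from muscle and mesenchymal cells, markers of these cells are given beside it. The 6 muscle miRNAs summed to 733 to 971 CPM of all counts in mouse and 236 to 419 in rat, mostly miR-1a-3p in mouse and miR-499-5p in rat, and miR-208a-3p was at 0 in all 3 mouse libraries. The 8 vascular and mesenchymal miRNAs summed to 4320 to 5160 CPM in mouse and 7642 to 8084 in rat, and none was at 0. Most of this was miR-143-3p, at 2607 to 3086 CPM in mouse and 5272 to 6466 in rat. Of the tested markers, 2 of 5 muscle names and 1 of 7 vascular names were higher in rat, and 1 and 2 lower. Over all 398 tested miRNAs 25.6% were higher and 24.4% lower. The main mouse muscle name, miR-1a-3p, was joined to the rat name miR-1-3p and is not among the 5 tested. It held 622 to 858 CPM of all counts in mouse and 14.1 to 37.7 in rat. The 1 higher vascular name was miR-143-3p (0.92 ± 0.28, edgeR adjusted p = 0.0247). The 2 lower were miR-199a-3p (-1.18 ± 0.20, edgeR adjusted p = 0.00112) and miR-199a-5p (-0.93 ± 0.21, edgeR adjusted p = 0.00639). Of 3 tested epithelial and lens names, 2 were higher in rat and 0 lower, beside the same 25.6% and 24.4% of all 398. The 3 red blood names summed to 104 to 110 CPM in mouse and 161 to 292 in rat (2 names matched). Most of this was miR-486a-5p, joined to the rat name miR-486. The 1 tested red blood name, miR-144-3p, was lower in rat without a call (-1.03 ± 0.56, edgeR adjusted p = 0.160). The 4 leukocyte names summed to 47.3 to 54.5 CPM in mouse and 40.1 to 74.6 in rat. The part of these cells in the differences of the members was not tested. In such bulk samples fewer cells of a type and less miRNA per cell cannot be told apart.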

How the data were processed

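For each species the authors deposited 1 table of raw, unnormalized counts, with a row for each mature miRNA. Per the labels' protocols, a miRNeasy mini kit yielded the RNA, which was read single-end on an Illumina Hiseq instrument. Not given in the sources used here: the aligner, trimming, miRNA annotation, and how reads matching more than 1 miRNA were counted. Columns m1, m3, m4, r1, r2 and r4 do not match the labels' numbers and were assigned to a species only.

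Names were joined after removing the species prefix. The abundance test was that of edgeR 4.0.16 under R 4.3.3 (low counts removed by filterByExpr, TMM, quasi-likelihood F test, 398 names), arm usage and ratios to miR-322-3p with limma 3.58.1 (0.5 added), all with Benjamini-Hochberg adjustment. All ratios share the miR-322-3p reading, and the pooled spread gave each member the same SE (0.41). Its p-values can therefore be too small. For some members with a small spread, such as miR-351-5p and miR-450b-3p, they were larger than with the own spread. Each name's own spread was added after seeing the data. DESeq2 1.42.0, other scalings, filters, names and each library left out were alternatives. A relaxed match also joined names with a differing letter or no arm (570 in all). Members, relatives and marker lists were chosen with earlier results of these data known. Named miRNAs were all members, the relatives, the 4 most abundant and 2 extreme X-linked names and the 5 most alike profiles. The markers miR-184, miR-1a-3p, miR-499-5p, miR-208a-3p, miR-486a-5p, miR-144-3p, miR-143-3p, miR-199a-3p and miR-199a-5p were named after their values were seen. On simulated counts for the abundance comparison (390 names kept), 84.3% of 2-fold changes were called. This rate covers miRNAs of all levels and was not computed for the members, several of which had low counts. Intervals and the limit of 3 counts cover counting error only. Depth was 24169628 to 30514632 counts, and 1 scaled CPM of the shared names was 12.4 to 25.2 counts.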

Additional observations from a re-analysis of the deposited data

How the results depend on the processing

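The rise of miR-450a-5p and miR-450b-5p was called under each of the 11 abundance alternatives. Of 9 members, 4 were called, but 2 with library totals of the shared names and 2 with those of all deposited names, where miR-322-3p and miR-503-3p were not called, and 3 to 5 without 1 library. Without a filter 6 of 11 were called. Values near 0 changed sign: miR-542-3p was 0.26 and 0.14 with the 2 kinds of totals and -0.25 to 0.13 without 1 library, miR-503-5p was -0.028 with relaxed names and -0.37 to 0.41 without 1 library, and miR-322-5p was -0.11 to 0.51 without 1 library. The miR-351 arm ratio was -0.42 with 5 added and -0.63 to 1.03 without 1 library. The ratio of miR-503-3p to miR-322-3p was 0.11 with 5 added and -0.147 to 0.077 without 1 library. Hairpins called by arm numbered 41, and 26 to 63 without 1 library (27 without m1, 26 without m3, 28 without m4 and 63 without r1). The ratio test called 282 miRNAs, and 76 with miR-322-5p as the reference. The cluster's share was 131.4 CPM in both species with shared names as the denominator. At least 50 counts were reached by 4 names in mouse and 5 in rat. The causes of these changes were not tested. Depth limits miR-351-3p and miR-542-5p, with 5 counts or fewer in each rat library. No paired analysis was possible because the columns carry no replicate numbers of the labels and the species share no animals.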
